A study of Homo sapiens with 9 samples.

Results

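After activation of Jurkat T cells, ribosome footprints rose on some genes that regulate the stability of cytokine mRNAs and fell on others. The genes described are 8 of the 19569 gene IDs in a ribosome profiling count table. Their choice was by Ensembl ID for their known role, made with earlier results of these data known. They are ZFP36 (ENSG00000128016.7), ZFP36L1 (ENSG00000185650.10) and ZFP36L2 (ENSG00000152518.8), the Regnase genes ZC3H12A (ENSG00000163874.11) and ZC3H12D (ENSG00000178199.14), the Roquin genes RC3H1 (ENSG00000135870.12) and RC3H2 (ENSG00000056586.16), and ELAVL1 (ENSG00000066044.15). Ribosome profiling counts the short mRNA fragments that ribosomes protect, called footprints, so a gene's count depends on both the amount of its mRNA and how heavily that mRNA is translated. Measurements of the mRNA itself were not analysed here. The series labels the libraries as ribosome profiling, while their protocol text describes an mRNA sequencing kit used on total RNA and no isolation of footprints. The 9 libraries came from Jurkat clone E6-1, an established human T lymphoblast line, with 3 biological replicates of each group. Resting cells received no stimulus and are labelled 0 h. The other 2 groups were stimulated for 5 h or 12 h with plate-bound anti-CD3, coated at 10 µg/mL, and soluble anti-CD28 at 5 µg/mL, which engage the T cell receptor complex and its main costimulatory receptor. No unstimulated libraries at 5 h or 12 h are among the 9, so the stimulus and the elapsed time cannot be told apart. All groups are a single leukaemia-derived clone, and the labels give no genetic change in any of them. The deposited tables pair no gene names with IDs, so the labelled cell type was not checked against T cell marker genes.

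These proteins set how long inflammatory transcripts last. ZFP36 (tristetraprolin), ZFP36L1 and ZFP36L2 bind AU-rich elements through a tandem of CCCH zinc fingers and recruit the CCR4-NOT deadenylase. ZC3H12A (Regnase-1) is an endoribonuclease that cuts stem-loops in cytokine mRNAs, and ZC3H12D is its relative Regnase-4. RC3H1 (Roquin-1) and RC3H2 (Roquin-2) bind stem-loops and promote deadenylation, and both they and Regnase-1 are substrates of the paracaspase MALT1 after T cell receptor stimulation. ELAVL1 (HuR) binds AU-rich elements too, but is best known for stabilizing the transcripts it holds.

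Library totals ran from 4343515 to 18506509 counts, the lowest in 12 h replicate 2 and the highest in 5 h replicate 3. Levels are CPM, counts per 1000000 library counts after scaling with edgeR's TMM factors, so a rise or fall is relative to the scaled library. In bulk samples such as these, fewer cells with an mRNA and less of it per cell cannot be told apart. All 8 genes passed the low-count filter, which kept 13920 IDs. A gene is said to have risen or fallen where edgeR's quasi-likelihood test gave a Benjamini-Hochberg adjusted p under 0.05 over all IDs tested, and each log2 fold change carries its standard error (SE).

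Set against resting cells, the 5 h libraries show the early response of these genes. ZFP36L1 and ZC3H12A rose most, about 12.9-fold and 8.30-fold in mean CPM. RC3H1 rose 2.32-fold, RC3H2 1.73-fold and ZFP36 1.54-fold. The ZFP36 call was lost without 5 h replicate 1 (adjusted p 0.49 by edgeR), and its lowest 5 h library was barely above the highest resting library. ZFP36L2 and ELAVL1 fell, to 0.371 and 0.647 of their resting means. ZC3H12D had too few footprints to place. In all, 5 of the 8 genes rose and 2 fell, where 16.0% of all tested IDs rose, 18.4% fell and 34.5% changed either way. The groups' libraries did not overlap for 7 of the 8 genes, against 45.7% of all IDs. The median log2 fold change over the 8 genes was 0.70, against 0.07 over all IDs, and the median size of the change regardless of sign was 1.00 against 0.42.

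**Figure D1:**
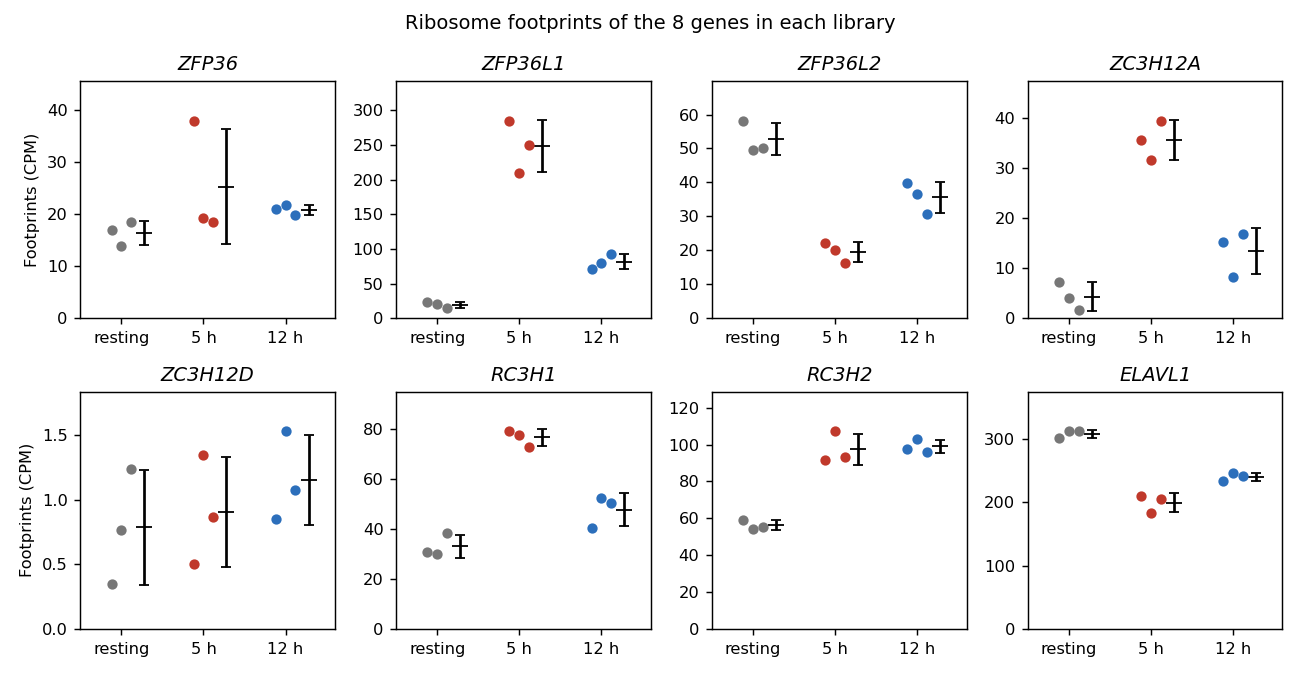
Footprint level of each gene in CPM (vertical axes start at 0 and differ between panels) in the 3 resting, 3 5 h and 3 12 h libraries; points are libraries, and the black mark and bar beside them are the mean and SD (n = 3). ZFP36L1, ZC3H12A and RC3H1 peak at 5 h, RC3H2 is about level from 5 h to 12 h, and ZFP36L2 and ELAVL1 are lowest at 5 h.

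At 12 h against resting cells, 4 genes were still higher and 2 were still lower. Among all IDs, 15.8% rose, 19.3% fell and 35.1% changed either way. ZFP36L1 stood at 4.21 times its resting mean, ZC3H12A at 3.15 times, RC3H2 at 1.76 times and RC3H1 at 1.44 times, while ZFP36L2 was at 0.676 and ELAVL1 at 0.778. ZFP36 and ZC3H12D did not pass the test. The groups' libraries did not overlap for 7 of the 8 genes, ZFP36 among them, against 45.8% of all IDs. The median log2 fold change was 0.51 over the 8 genes and 0.04 over all IDs. Regardless of sign, the median size of the change was 0.54 against 0.43, a smaller gap than at 5 h.

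Between 5 h and 12 h, 3 genes fell (ZFP36L1, ZC3H12A and RC3H1) and 2 rose (ZFP36L2 and ELAVL1). Of all IDs, 13.5% fell, 11.6% rose and 25.1% changed either way, and 39.1% had libraries that did not overlap, as had 5 of the 8 genes. Each of the 5 moved back towards its resting level. The median log2 difference was -0.12 over the 8 genes and -0.05 over all IDs, and its median size regardless of sign was 0.50 against 0.33. The 3 comparisons share libraries, so they are not independent, and a high 5 h value enters both the rise and the later fall.

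**Figure D2:**
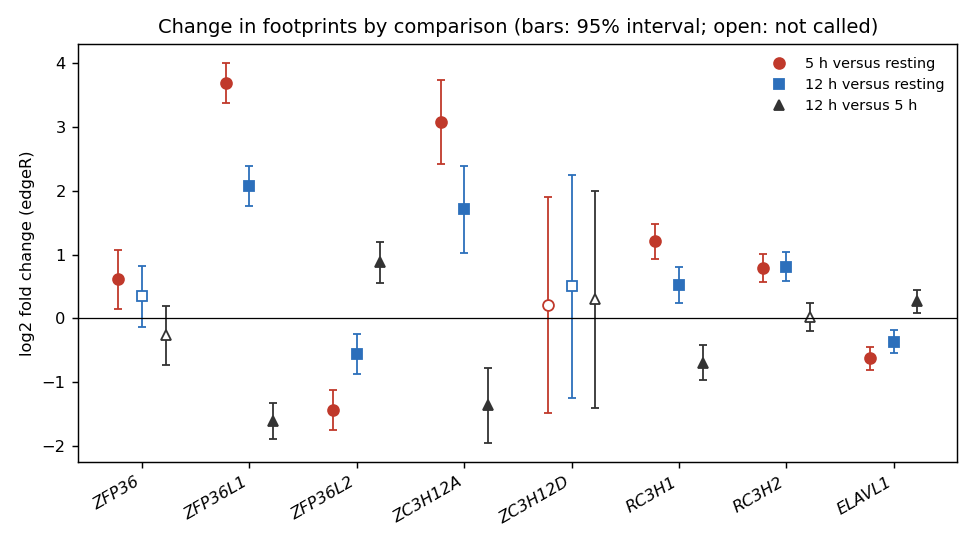
Fitted log2 fold change of each gene in the 3 comparisons, with 95% intervals from the fit; filled symbols passed the test at an adjusted p under 0.05 and open symbols did not. Among differences that passed the test, that of 12 h versus 5 h has the opposite sign to the 5 h change for ZFP36L1, ZFP36L2, ZC3H12A, RC3H1 and ELAVL1.

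Promoter sequence is shown for 3 genes that rose, because their windows hold a match to a cAMP response element, an EGR site or an NF-kappaB site, sites of factor classes known from T cell activation. RefSeq's table for GRCh38.p14 gave 6 start sites for 5 of the 8 genes (ZFP36, ZC3H12A, RC3H1 and RC3H2 with 1 each, ZFP36L1 with 2), and the 250 bases upstream of each were searched on both strands. No start site was available for ZFP36L2, ELAVL1 or ZC3H12D, so neither gene that fell was searched. A link between these motifs and the direction of change was not tested. Capitals mark the matches. In ZFP36L1 they mark a cAMP response element, in ZC3H12A an EGR site (the upstream run) and a TATA box, and in RC3H2 an NF-kappaB site.
ZFP36L1, chr14:68793417-68793666, minus strand: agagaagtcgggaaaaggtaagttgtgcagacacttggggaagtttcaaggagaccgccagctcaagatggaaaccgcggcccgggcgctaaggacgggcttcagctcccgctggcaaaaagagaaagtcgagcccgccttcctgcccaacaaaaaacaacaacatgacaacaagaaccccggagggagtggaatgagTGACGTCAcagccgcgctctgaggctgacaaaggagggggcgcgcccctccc
ZC3H12A, chr1:37474330-37474579, plus strand: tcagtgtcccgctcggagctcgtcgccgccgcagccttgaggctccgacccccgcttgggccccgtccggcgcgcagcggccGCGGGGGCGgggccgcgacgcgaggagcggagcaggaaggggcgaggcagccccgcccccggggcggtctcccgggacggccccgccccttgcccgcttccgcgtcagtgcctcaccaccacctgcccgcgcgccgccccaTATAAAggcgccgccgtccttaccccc
RC3H2, chr9:122905360-122905609, minus strand: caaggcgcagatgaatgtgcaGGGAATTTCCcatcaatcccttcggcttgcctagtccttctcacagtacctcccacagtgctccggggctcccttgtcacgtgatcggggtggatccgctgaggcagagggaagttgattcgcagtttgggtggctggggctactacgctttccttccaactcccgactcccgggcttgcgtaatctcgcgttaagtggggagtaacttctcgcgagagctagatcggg
The cAMP response element was searched as TGACGTCA, which 1.65% of 35116 such windows hold, and lies 52 to 45 bases before the ZFP36L1 start. The EGR site was searched as GCGNGGGCG, which 8.41% hold, and lies 168 to 160 bases before the ZC3H12A start. The TATA box, TATAAA, lies 27 to 22 bases before the same start, and 10.7% of windows hold one. The NF-kappaB site, found in 5.07% of windows, lies 229 to 220 bases before the RC3H2 start, where it overlaps a reverse-strand match to the NFAT core. That core, GGAAA, is in 55.6% of windows and was found at ZFP36, at the printed ZFP36L1 start, at RC3H1 and at RC3H2; it is not capitalized outside the overlap. The RC3H1 window held a TATAAA, 162 to 157 bases before its start. No window of these genes matched the AP-1 site TGANTCA or the CArG box, held by 6.57% and 1.16% of windows, and the other ZFP36L1 start matched none of the motifs. A match is a description of these letters, and footprint counts do not say which start was used.

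Among the AU-rich element binding genes, ZFP36L1 gave the clearest change. Its level was 23.2, 19.8 and 14.9 CPM in the resting libraries, 285, 209 and 250 CPM at 5 h, and 71.0, 80.1 and 92.8 CPM at 12 h. The lowest 5 h library was thus far above the highest 12 h library, which in turn was far above every resting library, and no groups overlapped. Group means were 19.3 ± 4.15, 248 ± 37.8 and 81.3 ± 11.0 CPM (SD, n = 3). The log2 fold change was 3.69 ± 0.15 (SE) at 5 h and 2.08 ± 0.15 at 12 h, with edgeR adjusted p of 4.85e-15 and 1.95e-10. From 5 h to 12 h it fell by 1.61 ± 0.13, with an edgeR adjusted p of 4e-09. Its 5 h change ranked 128 from the top of 13920 IDs, and 27.1% of the 5 h gain in CPM remained at 12 h.

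ZFP36L2, a close relative of ZFP36L1 with the same RNA target class, went the other way. It stood at 58.2, 49.7 and 50.2 CPM at rest, fell to 22.3, 20.0 and 16.3 CPM at 5 h and was back at 39.7, 36.6 and 30.7 CPM at 12 h. Every 5 h library was below every 12 h library, and every 12 h library was below every resting library. Its log2 fold change was -1.44 ± 0.15 (SE) at 5 h and -0.56 ± 0.15 at 12 h, with edgeR adjusted p of 7.16e-08 and 0.00489. Only 0.934% of tested IDs had a lower 5 h value. The rise from 5 h to 12 h was 0.88 ± 0.15 (SE), with an edgeR adjusted p of 0.000125, and 51.5% of the 5 h fall in CPM remained at 12 h.

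ZFP36, the founding member of the family and an early response gene in many cells, changed much less. Its levels were 16.9, 13.8 and 18.4 CPM at rest, 38.0, 19.3 and 18.5 CPM at 5 h, and 21.1, 21.7 and 19.8 CPM at 12 h. At 5 h, replicate 1 stood far above the other libraries, while replicate 3 lay just above the highest resting library. The spread at 5 h had a coefficient of variation of 43.7%, where counting error alone would give 5.62%. At 5 h the log2 fold change was 0.61 ± 0.22 (SE), with an edgeR adjusted p of 0.0376. Without 5 h replicate 1 it was 0.20, with an edgeR adjusted p of 0.49, and the call was also lost without resting replicate 1 (adjusted p 0.0721 by edgeR) or resting replicate 2 (0.134). It was lost too in DESeq2 (0.0613), in limma on the authors' log2 values (0.0516) and in an edgeR fit of only the 6 libraries compared (0.0548). At 12 h the value was 0.34 ± 0.23, with a 95% interval from -0.13 to 0.82 and an edgeR adjusted p of 0.268. The 12 h minus 5 h difference was -0.27 ± 0.22 (adjusted p 0.449 by edgeR), and it was 0.13 without 5 h replicate 1.

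Ratios within a library remove its scaling and the genes' unknown lengths. Relative to the resting mean, the log2 ratio of ZFP36L1 to ZFP36L2 counts was 5.14 ± 0.27 (SD, n = 3) at 5 h, a 35.2-fold shift, and 2.66 ± 0.38 at 12 h. The log2 ratio of ZFP36 to ZFP36L2 was 1.99 ± 0.42 at 5 h and 0.92 ± 0.14 at 12 h, and that of ZFP36L1 to ZFP36 was 3.15 ± 0.43 and 1.73 ± 0.25. In each of these ratios, no libraries of different groups overlapped, so the footprint make-up of the family moved towards ZFP36L1 and away from ZFP36L2 in every activated library. These ratios use the values already tested above and were given no test of their own. The sources used here do not give how fragments that match several genes were counted, and an exchange of fragments between the relatives was not tested.

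**Figure D3:**
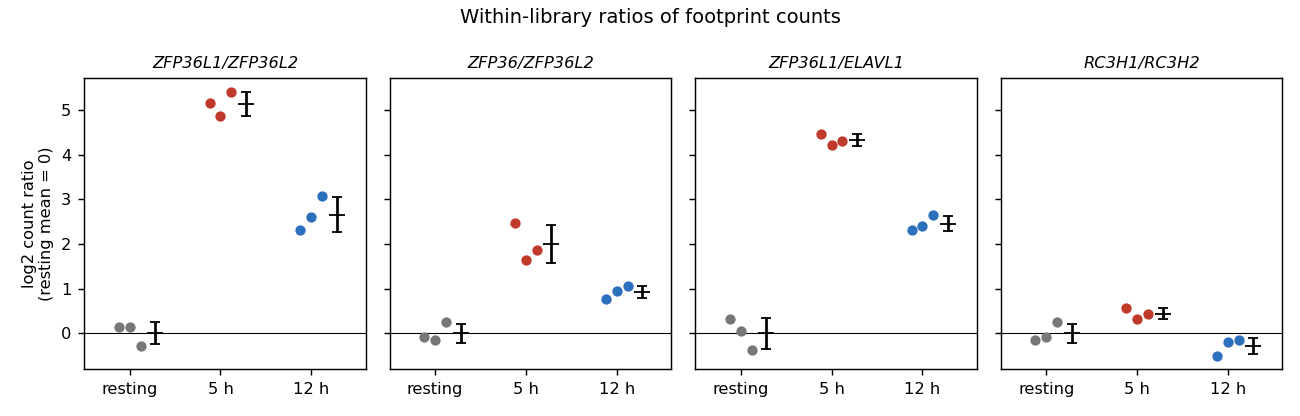
Log2 ratio of footprint counts of named gene pairs within each library, set to 0 at the resting mean, for the 3 resting, 3 5 h and 3 12 h libraries; the black mark and bar are the mean and SD (n = 3). ZFP36L1 over ZFP36L2 is 5.14 at 5 h and 2.66 at 12 h, while RC3H1 over RC3H2 is 0.43 and -0.29.

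ELAVL1, the stabilizing factor of the set, fell moderately, with a coefficient of variation of 2.08% at rest, 7.36% at 5 h and 2.66% at 12 h. Its resting levels were 301, 312 and 312 CPM, its 5 h levels 210, 183 and 206 CPM and its 12 h levels 233, 245 and 241 CPM. All 3 groups were separate, with 5 h lowest and 12 h between. Log2 fold changes were -0.63 ± 0.08 (SE) at 5 h and -0.36 ± 0.08 at 12 h, with edgeR adjusted p of 2.5e-06 and 0.00149. The 12 h minus 5 h difference was 0.27 ± 0.08, with an edgeR adjusted p of 0.0216. That last call was lost without 5 h replicate 2 (0.145), 12 h replicate 2 (0.0961) or 12 h replicate 3 (0.0831), and with no low-count filter (0.0572), all by edgeR. The log2 ratio of ZFP36L1 to ELAVL1 counts, set to 0 at rest, was 4.33 ± 0.12 (SD, n = 3) at 5 h and 2.45 ± 0.17 at 12 h.

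The smaller falls depended on how libraries were scaled. With total counts in place of TMM, the median log2 fold change of all IDs moved from 0.07 to 0.22 at 5 h and from 0.04 to 0.23 at 12 h, and the balance of calls turned from 2230 higher and 2567 lower to 3112 and 1756 at 5 h, and from 2204 and 2683 to 3497 and 1671 at 12 h. Under that scaling ELAVL1 at 12 h was -0.17 and ZFP36L2 at 12 h was -0.37 (log2), with edgeR adjusted p of 0.0848 and 0.0617. Both 5 h falls were called under each of the scalings tried (TMM, RLE, upper quartile and total counts).

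Of the Regnase genes, ZC3H12A rose from a low and uneven resting level. The resting libraries held 63, 36 and 15 counts, or 7.34, 3.96 and 1.55 CPM, the 5 h libraries 35.6, 31.6 and 39.5 CPM, and the 12 h libraries 15.2, 8.32 and 16.9 CPM. The groups did not overlap, although 12 h replicate 2 at 8.32 CPM, with 38 counts, was close to resting replicate 1. The resting coefficient of variation was 67.8%, against 19.2% from counting error alone, and the 5 h libraries varied by 11.2%. By fit, it changed by 3.07 ± 0.32 (SE) at 5 h and 1.71 ± 0.33 at 12 h (log2), with edgeR adjusted p of 5.98e-08 and 0.000246. The 12 h minus 5 h difference was -1.36 ± 0.28, with an edgeR adjusted p of 0.000818, and 29.5% of the 5 h gain remained at 12 h. The size of the rise rested on the resting libraries: without resting replicate 1 it was 3.69 at 5 h and 2.32 at 12 h, and without resting replicate 3 it was 2.65 and 1.29. Each of these stayed called.

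ZC3H12D was near the limit of detection in every library. It had 3, 7 and 12 counts at rest, 5, 18 and 16 at 5 h, and 10, 7 and 8 at 12 h. Group means were 0.787 ± 0.447, 0.907 ± 0.424 and 1.15 ± 0.345 CPM (SD, n = 3), and all groups overlapped. The log2 fold change was 0.20 ± 0.82 (SE) at 5 h, with a 95% interval from -1.49 to 1.90, and 0.50 ± 0.84 at 12 h, with an interval from -1.24 to 2.25. The edgeR adjusted p was 0.869 and 0.688, so no change was detected at this depth, and the intervals leave room for sizeable changes of either sign. A change as large as that of ZC3H12A at 5 h lies outside the 5 h interval.

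The Roquin genes both rose, and differed in their course. RC3H1 stood at 31.0, 29.9 and 38.4 CPM at rest, 79.2, 77.9 and 73.1 CPM at 5 h, and 40.3, 52.5 and 50.4 CPM at 12 h. The 5 h libraries were well clear of both other groups, and the lowest 12 h library was just above the highest resting library. Fitted log2 fold changes were 1.21 ± 0.13 (SE) at 5 h and 0.52 ± 0.14 at 12 h, with edgeR adjusted p of 1.37e-07 and 0.0047. It fell by 0.69 ± 0.13 from 5 h to 12 h, with an edgeR adjusted p of 0.000298, and 33.6% of the 5 h gain remained.

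RC3H2 rose and stayed up. Its levels were 59.3, 54.3 and 55.4 CPM at rest, 91.7, 107 and 93.1 CPM at 5 h, and 97.7, 103 and 96.1 CPM at 12 h. Both activated groups were above every resting library and overlapped each other. The log2 fold change was 0.79 ± 0.11 (SE) at 5 h and 0.81 ± 0.11 at 12 h, with edgeR adjusted p of 2.62e-06 and 2.2e-06. The 12 h minus 5 h difference was 0.02 ± 0.10, with a 95% interval from -0.19 to 0.24 and an edgeR adjusted p of 0.915. The log2 ratio of RC3H1 to RC3H2 counts, set to 0 at rest, was 0.43 ± 0.12 (SD, n = 3) at 5 h and -0.29 ± 0.19 at 12 h. It was at least 0.31 in each 5 h library and at most -0.16 in each 12 h library, with no test of the ratio run. The resting libraries ran from -0.16 to 0.25 and overlapped those at 12 h.

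Against all tested IDs, ZFP36L1 and ZC3H12A stood in the upper tail and the Roquin genes nearer the middle. At 5 h, 99.1% of IDs had a lower log2 fold change than ZFP36L1 and 98.6% a lower one than ZC3H12A, compared with 89.1% for RC3H1, 81.2% for RC3H2 and 75.9% for ZFP36. At 12 h the values were 97.3% for ZFP36L1, 95.6% for ZC3H12A, 84.0% for RC3H2 and 74.8% for RC3H1. Of the 8 genes, 3 both passed the test and were more than 2-fold higher at 5 h (ZFP36L1, ZC3H12A and RC3H1), as did 6.42% of all IDs, and 2 did at 12 h (ZFP36L1 and ZC3H12A), against 5.17%.

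**Figure D4:**
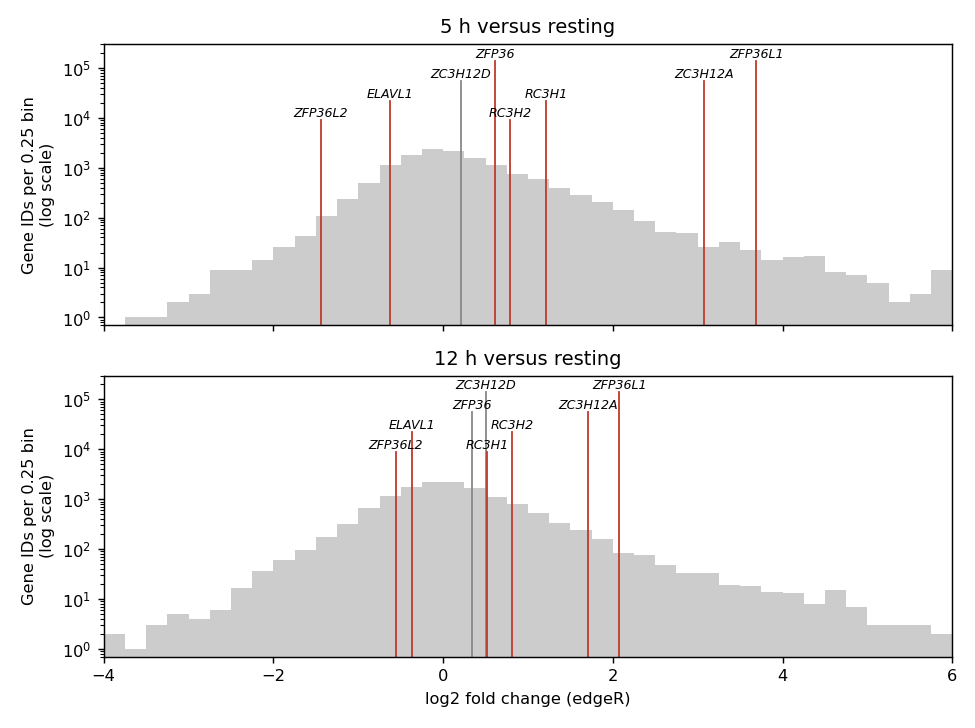
Number of gene IDs per 0.25 bin of fitted log2 fold change (grey bars, log axis) at 5 h and 12 h against resting cells, with the 8 genes as vertical lines, red where the test was passed and grey where not; IDs beyond the axis are not drawn, and line heights only separate the names. ZFP36L1 and ZC3H12A lie far to the right at 5 h and closer to the middle at 12 h.

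The profiles most like those of the changing genes were sought among the 8827 other tested IDs averaging at least 10 CPM, by Pearson correlation of log2 CPM over the 9 libraries, as a description with no test. The libraries fall into 3 groups, so a high value mostly reflects shared group differences. ZFP36L1 was most like ENSG00000138166.6 (r = 0.998), which went from 1.08 CPM at rest to 172 at 5 h and 24.1 at 12 h, and ENSG00000116717.13 (r = 0.997), which went from 6.92 to 44.1 and 20.0. ZFP36L2 was most like ENSG00000111335.14 (r = 0.983), at 35.7, 12.0 and 19.9 CPM, and ENSG00000109062.12 (r = 0.982), at 123, 33.7 and 74.9 CPM. Over 0.95 there were 149 IDs for ZFP36L1, 95 for RC3H2, 91 for ELAVL1, 44 for RC3H1, 39 for ZFP36L2, 16 for ZC3H12A and 1 for ZFP36. ZFP36 thus had the fewest close matches among the 7 genes. Its 5 h libraries also varied widely, with a coefficient of variation of 43.7%, and the effect of that spread on the number of matches was not tested.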

How the data were processed

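The deposited count table holds whole-number footprint counts per versioned Ensembl gene ID, not normalized by the authors. A second table holds the authors' log2 values, found here to be log2 of 1 plus the count over a size factor for each library (largest difference 5.03e-09 over 11572 IDs). Build GRCh38.p13 and the tools RSEM, Bowtie, cutadapt 3.2, DESeq2 and bedtools are named without roles, per the submitters' processing notes. Per the labels' protocols, an mRNA sequencing kit was used on total RNA; the sources used here do not give the footprint isolation or annotation release.

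All 9 libraries entered 1 edgeR 4.0.16 fit (R 4.3.3) of group means, with filterByExpr, TMM scaling and the quasi-likelihood test. Benjamini-Hochberg adjustment ran over all 13920 tested IDs. SEs were derived from the log2 fold change and its F statistic, and 95% intervals from the SE. The common biological coefficient of variation was 15.6%. These steps were tested on data simulated with that single value for all IDs. The simulation therefore does not cover genes with a wider spread, such as ZC3H12A at rest and ZFP36 at 5 h. Alternatives used DESeq2 1.42.0, limma 3.58.1, other scalings, filters and sample sets. Counting error is the error of the counts alone, since amplified fragments are not independent molecules.

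The members and lists were chosen with earlier results of these data known. By rule, all 8 genes are named, with the 2 most similar IDs sought for each changed gene and at most 2 rising and 2 falling IDs printed. Further gene lists (other AU-rich element binding proteins, decay machinery, upstream regulators, reported targets and cell type markers) were set by symbol and were not analysed here, because the tables used pair no symbols with Ensembl IDs.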

Additional observations from a re-analysis of the deposited data

Results flagged for a closer look

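The change from resting cells differed between the time points for 5 of the 8 genes, where 25.1% of all IDs were called. It was tested directly as 12 h minus 5 h with edgeR's quasi-likelihood test and Benjamini-Hochberg adjusted p. The log2 difference was -1.61 for ZFP36L1, -1.36 for ZC3H12A and -0.69 for RC3H1, with adjusted p of 4e-09, 0.000818 and 0.000298 by edgeR. It was 0.88 for ZFP36L2 and 0.27 for ELAVL1, with adjusted p of 0.000125 and 0.0216 by edgeR. The ELAVL1 call was lost without 5 h replicate 2, 12 h replicate 2 or 12 h replicate 3 and with no low-count filter (adjusted p of 0.145, 0.0961, 0.0831 and 0.0572 by edgeR), and under a test against a 1.5-fold change, which also ended the calls of ZFP36L2 and RC3H1. All 3 replicates at 12 h lay on the same side of all 3 at 5 h for each of these 5 genes, as for 39.1% of all IDs.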

How the results depend on the processing

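Over 24 log2 fold changes (8 genes in 3 comparisons) and 451 values under the alternatives, 424 kept their direction and their side of the threshold, 22 kept the direction and lost the call, and 5 turned sign. The values that turned sign belonged to differences that were not called: ZC3H12D at 5 h (-0.14 without resting replicate 1, -0.18 without 5 h replicate 2, up to 0.69 without resting replicate 3), and 12 h minus 5 h for ZFP36 (0.13 without 5 h replicate 1, otherwise down to -0.43) and RC3H2 (-0.024 without 5 h replicate 1, -0.011 without 12 h replicate 2, up to 0.095 without 5 h replicate 2). ZFP36L1 and ZC3H12A kept every call under every alternative, ZFP36L2 and RC3H1 at 5 h likewise. Asking for a change beyond 1.5-fold (glmTreat) is a stricter question, which called 4 of the 8 genes at 5 h, 2 at 12 h and 2 between the times, with 1098, 1130 and 617 IDs in all. Leaving out each library in turn gave 6 to 7 of the 8 genes at 5 h, 6 at 12 h in every case and 4 to 5 between the times, with 4000 to 4744, 4021 to 5021 and 2831 to 3766 IDs in all. With the replicate block, 7, 6 and 5 of the genes were called, as without it, and 4644, 4689 and 3373 IDs in all. Deviations from group means correlated at -0.06 to 0.10 between same-numbered libraries of different groups, and at -0.12 to 0.09 between differently numbered ones. With 3 libraries per group, these values are too few to tell whether a shared number marks a pair. Counts over the other gene lists were not run, because the tables used pair no symbols with Ensembl IDs. Depth limits ZC3H12D, with at most 18 counts in a library. The resting level of ZC3H12A, at 15 to 63 counts, varied by 67.8%, against 19.2% from counting error alone.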
